A study of Saccharomyces cerevisiae with 4 samples.

Results

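The 9 nuclear genes for subunits of the cytochrome bc1 complex of baker's yeast were examined as a group: CYT1, RIP1, COR1, QCR2, QCR6, QCR7, QCR8, QCR9 and QCR10. They were taken by gene name from the probe annotation, by a rule that uses no measured value, although the complex was chosen with earlier results of these data known, and are 9 of the 4068 named genes tested. All 9 were measured on 4 of 4 arrays, each by 1 probe. The arrays compared Saccharomyces cerevisiae carrying pAG305GPD-AAE13 with control cells carrying pAG305GPD-ccdB. AAE13 encodes a plant malonyl-CoA synthetase, here under the constitutive yeast GPD promoter of a vector with a LEU2 marker, and the control held the ccdB cassette of the same vector. Both strains were grown at 30 °C in SD drop-out medium, fed malonate at 0.2 mM at an OD600 of 0.1 and harvested in mid-log phase, so malonate itself was not a variable. Each of the 4 arrays held 1 AAE13 culture and 1 ccdB culture, with AAE13 labelled with Cy5 on arrays 1 and 3 and with Cy3 on arrays 2 and 4. The labels call the cultures biological replicates and do not say how many transformants they came from.

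The cytochrome bc1 complex, or complex III, sits in the mitochondrial inner membrane. It takes electrons from ubiquinol, passes them to cytochrome c and moves protons across the membrane. Yeast has no proton-pumping complex I, so the bc1 complex and cytochrome c oxidase are the proton-pumping steps of its respiratory chain. The catalytic subunits are cytochrome b, encoded by COB in the mitochondrial genome, cytochrome c1 (CYT1) and the Rieske iron-sulfur protein (RIP1). COR1 and QCR2 encode the large core proteins on the matrix side, and QCR6 to QCR10 encode small subunits without redox groups. Transcription of many of these nuclear genes is repressed by glucose and activated by the Hap2/Hap3/Hap4/Hap5 complex and by the haem-dependent factor Hap1.

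The values are log2 ratios of AAE13 over ccdB with each array's median set to 0, so that 0 is the ratio of the typical probe. Neither the log base nor which strain is on top is stated in the sources used here. Base 2 was assumed, and every fold value given here rests on it. The highest deposited value was 16.61, and the range of the values does not settle the base. AAE13 over ccdB is the likely direction, because the series title names AAE13 first. The sample titles of arrays 2 and 4 name ccdB first, which was the Cy5 sample there, so the titles do not settle whether the ratios were turned for the dye swap. The mean correlation over all probes was 0.576 between arrays of opposite dye orientation and 0.693 between arrays of the same orientation. On these values the 4 arrays were read in 1 direction, which remains an assumption. Ratios never turned could also correlate positively through a dye effect of each probe, so the correlation cannot settle this reading. If the ratios run the other way, every direction given here is the opposite. If they were never turned for the dye swap, limma called 0 of the 9 genes and 0 of all genes, with 0 of the 9 and 154 of all genes at an unadjusted p under 0.05. Before centring, the array medians lay between -0.17 and 1.41. No spot intensities were analysed, so signal over background is unknown, and the 4 arrays limit the precision of each value. No probe for the AAE13 transcript was analysed here.

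Transcripts of the nuclear bc1 genes had mean log2 ratios above 0 across the catalytic, core and small subunits, read as AAE13 over ccdB. Of the 9 genes, 7 rose (adjusted p under 0.05 in limma), 0 fell, and QCR8 and QCR10 did not pass. Among all genes tested, 13% were called higher and 11.8% lower. The mean log2 ratios ran from 0.87 for QCR10 to 2.34 for CYT1, with a median of 1.34, against a median of -0.02 over all genes. The log2 ratio was above 0 on every array for 8 of the 9, with QCR8 on array 1 the exception, and for 22.9% of the genes measured on all arrays. The number of genes called over the whole table depended on single arrays: 529 were higher and 481 lower with all arrays, 241 and 186 without array 4, and 258 were lower without array 1. With the arrays not centred the median of all genes lay at 0.58, and the median of the 9 genes at 1.95.

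**Figure D1:**
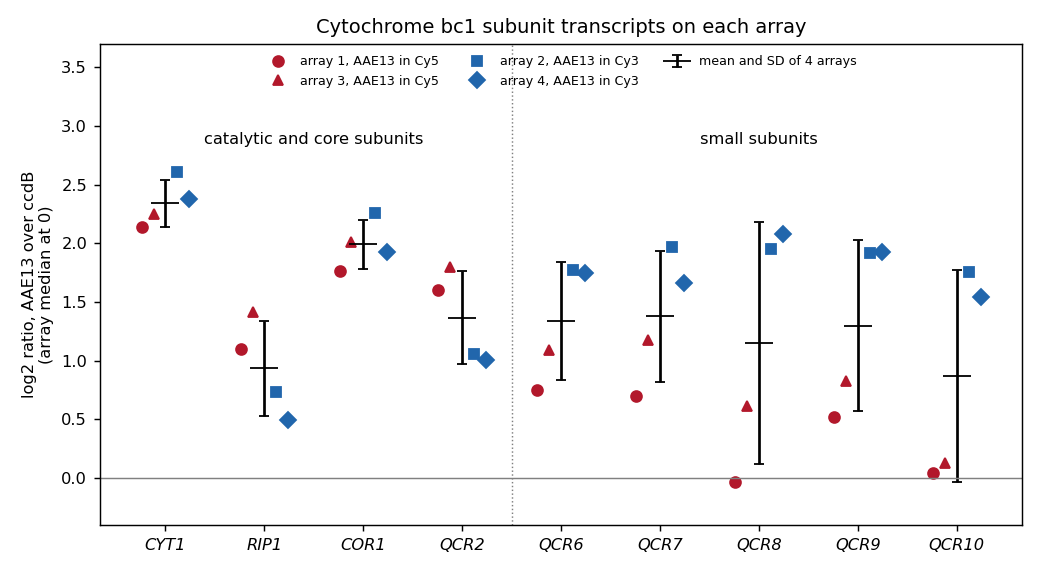
Log2 ratio of AAE13 over ccdB (y axis, array median at 0) of the 9 nuclear bc1 subunit genes (x axis) on each array. Red circles and triangles are arrays 1 and 3 (AAE13 in Cy5), blue squares and diamonds arrays 2 and 4 (AAE13 in Cy3), and bars show the mean and SD of 4 arrays. The 4 catalytic and core genes lie between 0.49 and 2.61 on every array, whereas each of the 5 small subunit genes has both red points below both blue ones.

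With the ratios read as AAE13 over ccdB, the gene of cytochrome c1 had the highest mean of the group. CYT1, whose product carries the haem that hands electrons to soluble cytochrome c, read 2.14, 2.61, 2.25 and 2.38 as log2 ratios, in the order of arrays 1 to 4. The values are close to each other, and the lowest is still a more than 4-fold excess. Their mean of 2.34 ± 0.20 (SD, n = 4) is a 5.07-fold higher level in the AAE13 strain (95% interval 3.88 to 6.63; adjusted p = 0.000251 in limma), and 21 of the 4068 genes had a higher mean.

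RIP1, the Rieske protein whose iron-sulfur cluster takes the first electron from ubiquinol, was raised less than CYT1. Its log2 ratios were 1.10, 0.73, 1.41 and 0.49 in array order, below CYT1 on 4 of 4 arrays, all above 0 and higher on both arrays with AAE13 in Cy5. The mean was 0.93 ± 0.40 (SD, n = 4), or 1.91-fold (95% interval 1.38 to 2.64; limma adjusted p = 0.0147). Without array 1 RIP1 no longer passed (adjusted p = 0.0603).

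Both core protein genes rose. COR1 read 1.77, 2.26, 2.01 and 1.93 as log2 ratios in array order, with a mean of 1.99 ± 0.21 (SD, n = 4), 3.98-fold (95% interval 3.04 to 5.21; limma adjusted p = 0.000495). QCR2 had 1.60, 1.06, 1.80 and 1.01, with a mean of 1.37 ± 0.40 (SD, n = 4), 2.58-fold (95% interval 1.87 to 3.55; limma adjusted p = 0.00332). COR1 was thus about the same on all arrays, whereas QCR2, like RIP1, was higher on both arrays with AAE13 in Cy5. The 2 proteins are related to the subunits of the mitochondrial processing peptidase, which cleaves presequences in yeast as a separate enzyme.

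Of the 5 small subunit genes, QCR6, QCR7 and QCR9 rose. QCR6, the acidic hinge protein that contacts cytochrome c1, read 0.75, 1.78, 1.09 and 1.74 as log2 ratios in array order, with a mean of 1.34 ± 0.51 (SD, n = 4; 2.53-fold; limma adjusted p = 0.00552). QCR7, which binds cytochrome b on the matrix side early in assembly, had 0.70, 1.97, 1.18 and 1.66, with a mean of 1.38 ± 0.56 (SD, n = 4; 2.60-fold; limma adjusted p = 0.00598). These are the most alike pair of the 9, with a root mean square difference of 0.11 over the arrays. QCR9, a membrane-spanning subunit, had 0.52, 1.92, 0.83 and 1.93, with a mean of 1.30 ± 0.73 (SD, n = 4; 2.46-fold; limma adjusted p = 0.0147), and did not pass without array 4 (adjusted p = 0.0751).

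QCR8 and QCR10 had the widest spread between arrays. QCR8, which joins QCR7 and cytochrome b in the first assembly step, read -0.03, 1.95, 0.61 and 2.08 as log2 ratios in array order. The value on array 1 is at the array median and those on arrays 2 and 4 are among the higher values of the group. Its mean of 1.15 ± 1.03 (SD, n = 4; 95% interval 0.32 to 1.99) was not called, at a limma adjusted p of 0.0529. QCR10, a peripheral subunit, had 0.04, 1.75, 0.13 and 1.54, with a mean of 0.87 ± 0.91 (SD, n = 4; 95% interval 0.11 to 1.62; limma adjusted p = 0.0881). For QCR10 both arrays with AAE13 in Cy5 were near 0. With a dye term in the fit both genes passed (adjusted p = 0.00925 for QCR8 and 0.0095 for QCR10), and 9 of the 9 genes were called higher, against 16.2% of all genes under that fit. QCR8 also passed without array 1 or array 3 (adjusted p = 0.0204 and 0.0316), and QCR10 without array 3 (0.0352).

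By mean ratio the genes ran in the order CYT1, COR1, QCR7, QCR2, QCR6, QCR9, QCR8, RIP1 and QCR10. CYT1 lay above COR1 on 4 of 4 arrays, by 0.35 ± 0.09 on the log2 scale, and COR1 above QCR7 on 4 of 4 arrays, by 0.61 ± 0.40 (SD, n = 4). Each of the remaining neighbours in the order changed places between arrays, with the higher gene ahead on 2 of 4 arrays and a mean difference of 0.22 or less, within its SD. CYT1 was the highest of the 9 on every array. The lowest was QCR8 on array 1, QCR10 on array 3 and RIP1 on arrays 2 and 4. This order holds for AAE13 over ccdB on all arrays: with arrays 2 and 4 turned, QCR2 at 0.34 and RIP1 at 0.32 had the highest means, CYT1 was at -0.15, and none of the 9 genes was called.

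The small subunit genes were separated between the arrays of the 2 dye orientations. Each orientation comprised 2 arrays with their own cultures, so an effect of the dye and a difference between cultures cannot be told apart. For QCR6, QCR7, QCR8, QCR9 and QCR10, both arrays with AAE13 in Cy5 lay below both arrays with AAE13 in Cy3. CYT1 showed the same order with a smaller gap, RIP1 and QCR2 showed the reverse, and for COR1 the orientations overlapped. Without overlap, 6 of the 9 genes were thus higher with AAE13 in Cy3 and 2 higher with AAE13 in Cy5, against 29.6% and 22.4% of genes measured on all arrays. The median log2 ratio of the small subunit genes was 0.52 and 0.83 on arrays 1 and 3 (AAE13 in Cy5), against 1.92 and 1.74 on arrays 2 and 4 (AAE13 in Cy3). The median of the 4 catalytic and core genes was 1.69 and 1.90 on arrays 1 and 3, against 1.66 and 1.47 on arrays 2 and 4.

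As a difference in log2 ratio between orientations (AAE13 in Cy5 minus AAE13 in Cy3), QCR8 was at -1.72 (95% interval -2.52 to -0.93), QCR10 at -1.56 (-2.17 to -0.95) and QCR9 at -1.25 (-1.88 to -0.62). QCR7 was at -0.88 (-1.62 to -0.13) and QCR6 at -0.84 (-1.49 to -0.19). QCR2 was at 0.67 (0.07 to 1.27) and RIP1 at 0.64 (-0.02 to 1.31), whereas CYT1 at -0.30 and COR1 at -0.21 had intervals that span 0. None of these differences passed adjustment over all genes. The limma dye term called 0 of the 9 genes and 0 of the 4068, whose smallest adjusted p was 0.221. At an unadjusted p under 0.05, 5 of the 9 genes were higher with AAE13 in Cy3, against 10.6% of all genes, and 1 was higher with AAE13 in Cy5, against 7.06%. In total 719 genes reached that unadjusted level.

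**Figure D2:**
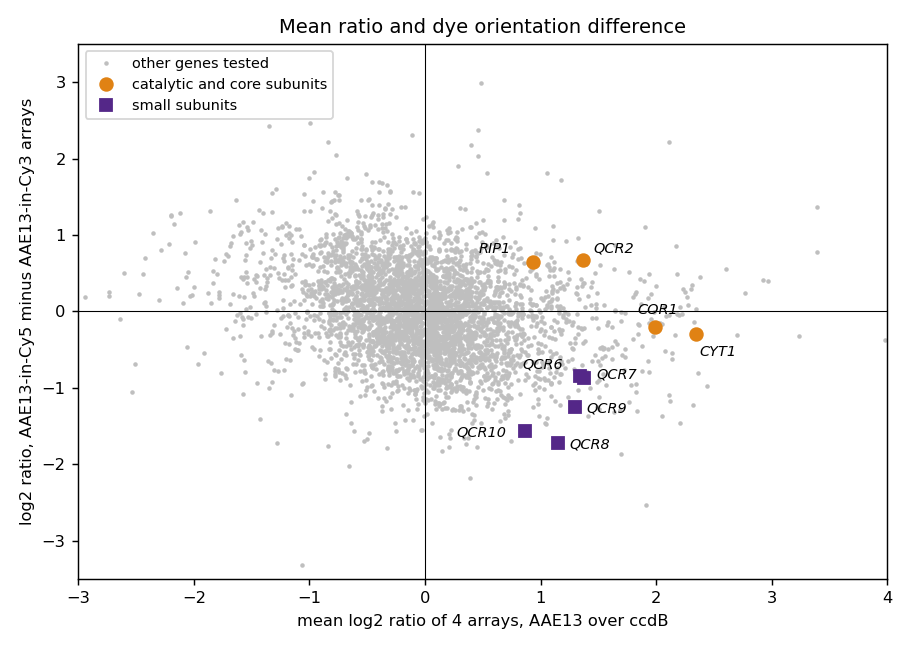
Mean log2 ratio of AAE13 over ccdB over 4 arrays (x axis) against the difference in log2 ratio between arrays with AAE13 in Cy5 and arrays with AAE13 in Cy3 (y axis) for the genes tested (grey), with 20 genes outside the axes. The 4 catalytic and core genes (orange circles) lie between -0.30 and 0.67 on the y axis and the 5 small subunit genes (purple squares) between -1.72 and -0.84.

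Array spread, deposited array medians and gene length differed along with this pattern, and their part in it was not tested. Before centring, the medians were 0.43 and -0.17 on arrays 1 and 3, against 0.76 and 1.41 on arrays 2 and 4. The median absolute deviation over all probes was 0.641 and 0.593 on arrays 1 and 3, against 0.818 and 0.726 on arrays 2 and 4. With the arrays scaled to 1 median absolute deviation, the differences of the small subunit genes ran from -1.47 (QCR8) to -0.54 (QCR6), and 5 of 5 still had both arrays with AAE13 in Cy5 below both with AAE13 in Cy3. CYT1 no longer did under that scaling, at 0.23. The scaled differences of QCR6 (-0.54) and QCR7 (-0.56) no longer reached the unadjusted level used above for the dye term. Those of QCR8, QCR9 and QCR10 still did. In the other direction, QCR2 at 0.99 and RIP1 at 0.87 reached it. None of the 9 genes passed adjustment for dye orientation under that scaling. Of 329 other genes whose mean ratio lay between those of QCR10 and CYT1, 36.5% had both arrays with AAE13 in Cy3 on top, and 54 had a difference at least as negative as that of QCR6. The small subunit genes are also the shortest of the 9, from 285 to 444 bases in the reference table with introns counted, against 648 to 1374 bases for the catalytic and core genes. Of 257 other genes of up to 444 bases, 38 (14.8%) had a difference at least as negative as QCR6, against 7.87% of 3798 longer genes, with medians of -0.15 and -0.02. Across 4064 genes, which are not independent of each other, the Spearman correlation of length with the difference was 0.126.

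Cytochrome b, the catalytic subunit made inside mitochondria, did not follow its nuclear partners. The log2 ratios of its gene COB were 7.27, 6.85, -2.55 and -2.20 in array order, far above 0 on the first pair of arrays and below 0 on the other. The mean of 2.35 ± 5.45 (SD, n = 4) had an adjusted p of 0.351 in limma and was not called. For each of the 9 nuclear genes arrays 1 and 2 overlapped with arrays 3 and 4: CYT1, for example, had 2.14 and 2.61 on arrays 1 and 2 and 2.25 and 2.38 on arrays 3 and 4. Some nuclear genes outside the 9 also split this way, at smaller size. NDE2 read 1.09, 1.79, -0.59 and -0.36 in array order, and HAP1 read 0.94, 0.99, -0.04 and 0.12. How many genes split this way was not counted, and a difference between the first and second pair of arrays was not tested. Labelling started from oligo-dT primed cDNA, and a change in the COB transcript and a change in how well an RNA without a long poly(A) tail was primed cannot be told apart.

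Of the genes for assembly of the complex and expression of COB, 10 of 12 were tested, of which 5 rose, 0 fell and 5 did not pass. Their median log2 ratio was 0.57, beside 1.34 for the subunit genes. For these and the lists below, the shares over all genes tested were 13% called higher and 11.8% called lower. CYT2, the lyase that attaches haem to cytochrome c1, was at 1.07 ± 0.53, and BCS1, which moves the folded Rieske protein across the inner membrane, at 1.01 ± 0.57 (SD, n = 4; adjusted p = 0.0142 and 0.0206, limma). CBP4, an assembly factor of cytochrome b, was at 0.96 ± 0.42, CBS2, a translation activator of COB, at 0.78 ± 0.50, and CBP2, needed to splice a COB intron, at 0.63 ± 0.19 (SD, n = 4; adjusted p = 0.014, 0.0393 and 0.0307, limma). Without array 4 these 5 genes lost their call, with adjusted p of 0.0579 for CYT2, 0.0738 for BCS1, 0.0733 for CBP4, 0.153 for CBS2 and 0.102 for CBP2. CBP2 also did not pass without array 1, 2 or 3 (adjusted p = 0.073, 0.11 and 0.0567), nor CBS2 without array 1 or 2 (0.11 and 0.0991). Of the peptidase genes that cleave presequences of imported subunits, 5 of 6 were tested and 0 passed. Of these, SOM1, a subunit of the inner membrane peptidase, was lowest at -0.81 ± 0.84 (SD, n = 4), and passed with a dye term (adjusted p = 0.0108) or without array 3 (0.0292).

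On the ubiquinol side of the complex, 6 of 8 dehydrogenase genes rose, 0 fell and 2 did not pass, with a median log2 ratio of 1.97. They were NDE1 at 2.93 ± 0.66, SDH1 at 2.34 ± 0.34, NDI1 at 2.22 ± 0.43, SDH3 at 2.11 ± 0.66, SDH2 at 1.84 ± 0.79 and SDH4 at 1.52 ± 0.39 (SD, n = 4), with limma adjusted p from 0.000434 to 0.00484. NDE1 and NDI1 are the external and internal NADH dehydrogenases, and the SDH genes encode succinate dehydrogenase. The glycerol 3-phosphate dehydrogenase gene GUT2, at -0.19 ± 0.32, and the second external NADH dehydrogenase gene NDE2, at 0.48 ± 1.15 (SD, n = 4), did not pass. In ubiquinone synthesis, 7 of 11 listed genes were tested. Against 13% called higher and 11.8% lower over all genes, 2 rose, 0 fell and 5 did not pass, with a median of 0.31. Those that rose were COQ1, which makes the polyprenyl tail, at 1.15 ± 0.12, and the methyltransferase gene COQ5 at 0.76 ± 0.39 (SD, n = 4; adjusted p = 0.00275 and 0.0307, limma). COQ5 lost its call without array 1, 3 or 4 (adjusted p = 0.054, 0.056 and 0.119).

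On the cytochrome c side, of 7 genes 3 rose, 2 fell and 2 did not pass. Among all genes, 13% were called higher and 11.8% lower. Both cytochrome c genes rose, CYC7 with a log2 ratio of 2.12 ± 0.97 and CYC1 with 1.76 ± 0.72, as did the cytochrome c peroxidase gene CCP1, at 1.59 ± 0.29 (SD, n = 4; limma adjusted p = 0.00519, 0.00461 and 0.00145). The genes that fell were DLD1, a D-lactate dehydrogenase that feeds electrons to cytochrome c, at -1.85 ± 0.49, and CYC3, the lyase that attaches haem to cytochrome c, at -1.12 ± 0.73 (SD, n = 4; limma adjusted p = 0.00164 and 0.0256). The 2 haem lyase genes were thus on opposite sides of 0, CYT2 for cytochrome c1 above it and CYC3 for cytochrome c below it. CYC3 lost its call without array 1 or 4 (adjusted p = 0.0641 and 0.112) and with the arrays not centred (0.386).

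Of 6 genes for transcription regulators of respiration, 4 rose, 0 fell and 2 did not pass, with a median log2 ratio of 0.84. ROX1, a haem-dependent repressor of hypoxic genes, was at 1.69 ± 0.82. HAP3 was at 1.07 ± 0.31, HAP4, the activating subunit of the Hap complex, at 0.93 ± 0.50, and HAP5 at 0.74 ± 0.28 (SD, n = 4; adjusted p for the 4 genes from 0.00619 to 0.0225, limma). HAP1 and HAP2 did not pass. HAP4 lost its call without array 2 or 4 (adjusted p = 0.055 and 0.0926), and HAP5 without array 1, 3 or 4 (0.058, 0.0523 and 0.101). In the list of supercomplex factors, ADP/ATP carriers and cardiolipin enzymes, 4 of 8 genes were tested. Against 13% called higher over all genes, the main ADP/ATP carrier gene PET9 alone rose, at 1.94 ± 0.39 (SD, n = 4; limma adjusted p = 0.000944).

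**Figure D3:**
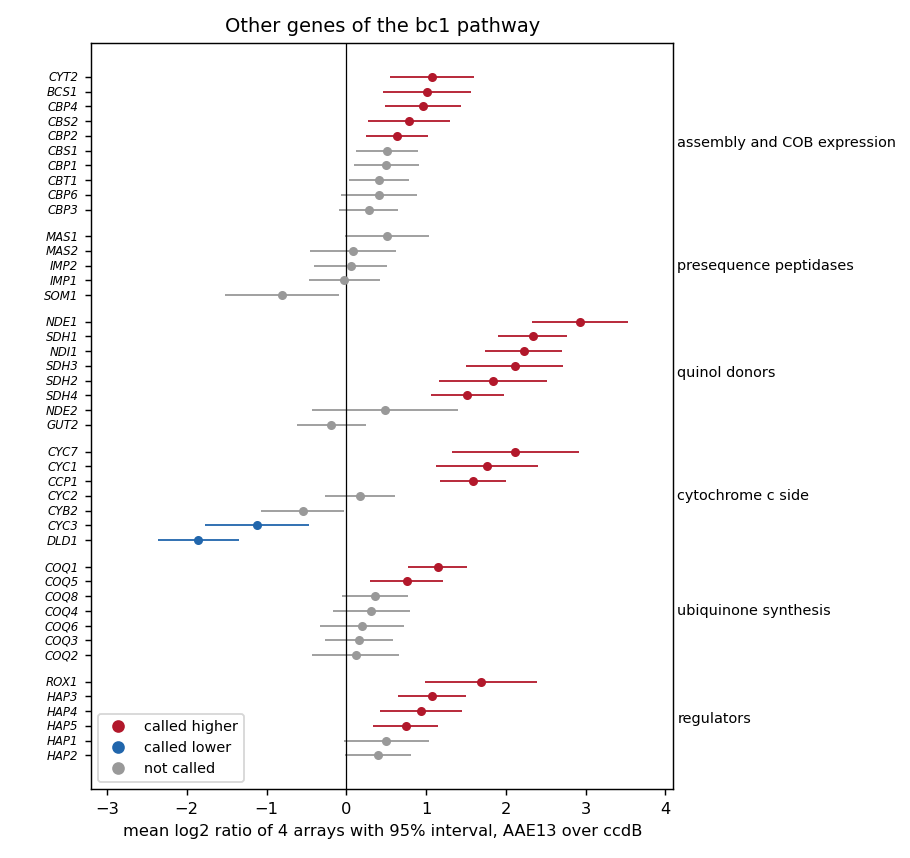
Mean log2 ratio of AAE13 over ccdB over 4 arrays (x axis, points) with its 95% interval from limma (lines) for other genes of the bc1 pathway, grouped by role. Red genes were called higher, blue lower and grey not called at an adjusted p of 0.05. NDE1 at 2.93 is the highest and DLD1 at -1.85 the lowest.

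The other respiratory complexes gave medians of similar size. The nuclear subunit genes of cytochrome c oxidase had a median log2 ratio of 1.18 (9 tested of 10 listed, 7 rose and 0 fell), and those of ATP synthase had 1.52 (14 tested, 14 rose), beside 1.34 for the bc1 genes. COX6 and COX8 were at 1.56 ± 0.57 and 1.50 ± 0.66, and ATP20 and ATP1 at 2.05 ± 0.84 and 1.85 ± 0.21 (SD, n = 4). The oxidase genes not called were COX7 at 0.45 ± 1.04 and COX13 at 0.18 ± 0.65 (SD, n = 4). Both means lay below the lowest of the bc1 genes, QCR10 at 0.87. In both complexes most genes were also lower with AAE13 in Cy5: 8 of 9 oxidase genes and 10 of 14 ATP synthase genes had both of those arrays below both arrays with AAE13 in Cy3, and 0 of either had the reverse, against 29.6% and 22.4% of genes measured on all arrays. Differences between the complexes were not tested.

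**Figure D4:**
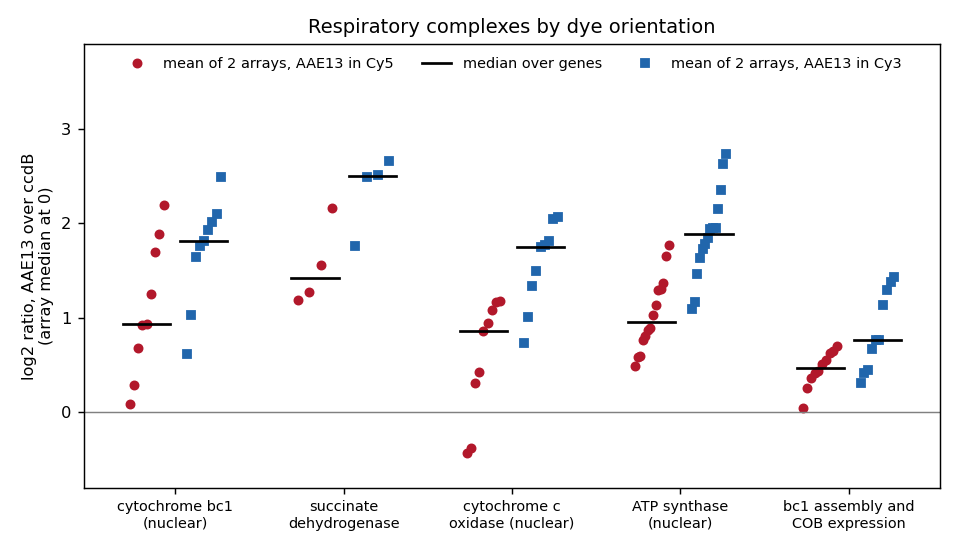
Log2 ratio of AAE13 over ccdB (y axis, array median at 0) of the genes of each group (x axis), as the mean of the 2 arrays with AAE13 in Cy5 (red circles) and of the 2 with AAE13 in Cy3 (blue squares). Black lines are medians over genes. For the bc1 subunit genes the medians are 0.94 with AAE13 in Cy5 and 1.82 with AAE13 in Cy3, and for the oxidase genes 0.86 and 1.75.

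By root mean square difference over the 4 arrays, 5 of 4056 other genes lay closest to the median profile of the bc1 genes, which was 0.75, 1.92, 1.18 and 1.74 on arrays 1 to 4. They were MEF2 (0.11), a mitochondrial translation factor gene, ATP17 (0.15), a subunit gene of ATP synthase, COX4 (0.16), a subunit gene of cytochrome c oxidase, UIP4 (0.17) and COX6 (0.18). The log2 ratios of MEF2 were 0.73, 1.84, 1.28 and 1.57 in array order. Among the bc1 genes themselves, CYT1 and QCR10 were the farthest apart, at 1.60.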

How the data were processed

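Per the labels, the AAE13 and ccdB cultures were paired on 4 two-colour arrays after oligo-dT primed reverse transcription. The labels name the channels Cy5 and Cy3, although their protocol gives Alexa Fluor dyes. In the deposited table, 6256 probes carry log2 ratios (4 cells empty), with base 2 inferred. The sources used here do not give the authors' software, normalization or ratio direction. Here each array was centred on its median. The platform annotation names 1 gene for 4075 probes and none for 2181. Symbols were updated through a RefSeq table of assembly R64 (129 older symbols; 4 kept without a match), which also gave gene lengths, and probes of a gene were averaged. Genes measured on at least 3 arrays (4068) entered a two-sided moderated test of the mean ratio against 0 (lmFit, eBayes; limma 3.58.1 under R 4.3.3). P-values were adjusted over all genes by Benjamini-Hochberg, with 0.05 as the threshold. The dye term compared arrays with AAE13 in Cy5 and in Cy3. Alternatives changed the centring, scaling, moderation, probe rule, filter, threshold and arrays used. Intervals are at 95% and not adjusted. The fit was run on simulated data as a check of the code. The simulated noise was independent between genes, and the simulated dye differences were larger than those of the bc1 genes. Figures used Python 3.11.15 and matplotlib 3.10.9. Named genes were the 9 subunits, COB, at most 3 called genes per list, genes spelling out counts of up to 5, the 5 closest profiles and, added after their values were seen, SDH2, SDH3 and SDH4. Values of COX7, COX13 and HAP1 were also added after they were seen and were not followed through the alternatives. A planned promoter motif search was not run, since no promoter sequences were used here. Members and lists were chosen with earlier results of these data known.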

Additional observations from a re-analysis of the deposited data

Results flagged for a closer look

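Of 45 genes checked for an array far from the others, 1 stood out: ATP1, a catalytic subunit gene of ATP synthase, had a log2 ratio of 1.54 on array 1, and the gap to the nearest other array was 0.873 of its range, above Dixon's critical value for 4 samples. Chance alone flags about 1 in 20 such groups. None of the 9 bc1 genes was flagged in this way.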

How the results depend on the processing

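The 9 bc1 genes had mean log2 ratios above 0 without centring, with scaled, quantile-normalized or weighted arrays, with any 1 array left out and on either dye orientation alone; the other settings that kept the direction of the ratios cannot move these means. Over the 17 settings of both kinds, 128 of 153 member results stayed on the same side of the threshold, 14 lost the call and 11 gained it. Taking 1 probe per gene, requiring 4 arrays or testing all probes leaves the values of these 9 genes as they are. Those settings could hardly move a call, and each kept 9 of 9. The count of bc1 genes called higher was 7 with all arrays but 5 at an adjusted p under 0.01, 2 without moderation, 3 on the arrays with AAE13 in Cy5 alone and 8 on those with AAE13 in Cy3 alone, the last 2 settings being chosen after seeing the data. It lay between 6 and 9 with 1 array left out, when the median of the 9 ran from 1.18 to 1.55, the genes called higher from 241 to 508 and those called lower from 186 to 536. Over all genes, 90 were called higher and 48 lower without moderation, 233 and 155 at an adjusted p under 0.01, 67 and 44 on the arrays with AAE13 in Cy5, and 336 and 251 on those with AAE13 in Cy3. With the arrays not centred, 744 were higher and 55 lower, the median of the 9 was 1.95, GUT2 turned to 0.42, and 3 of the 9 passed for dye orientation, against 0 with centring. The share of all genes passing for dye orientation without centring is not given here, so the 3 have no background. The fit without centring gave every gene the same variance, and COB passed in it. Of the genes named, CYT1, COR1, SDH1 and ATP1 kept their calls in every setting but the turned direction.

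With the ratios turned on arrays 2 and 4, the mean and the dye term change places. Over all genes, those passing for dye orientation are then those called with a dye term before turning. These were 661 (16.2%) in the direction of the 9 and 615 in the other. With the turned ratios, 0 genes were called higher or lower and 9 of the 9 passed for dye orientation. The median of the 9 was -0.42, with QCR2 at 0.34 and RIP1 at 0.32 still above 0 and CYT1 at -0.15, COR1 at -0.10, QCR6 at -0.42, QCR7 at -0.44, QCR8 at -0.86, QCR9 at -0.63 and QCR10 at -0.78. The other signs that turned gave -0.13 for CBP2, -0.33 for CBP4, -0.35 for CBS2, -0.36 for BCS1, -0.37 for CYT2, 0.72 for SOM1, -0.016 for NDI1, -0.23 for NDE2, -0.17 for SDH1, -0.65 for SDH2, -0.55 for SDH3, -0.24 for SDH4, -0.60 for CYC1, -0.59 for CYC7, 0.54 for CYC3, 0.058 for DLD1, -0.071 for CCP1, -0.13 for COQ5, -0.32 for COX4, -0.48 for COX6, -0.56 for COX8, -0.087 for ATP1, -0.52 for ATP14, -0.69 for ATP20, -0.16 for HAP3, -0.33 for HAP4, -0.016 for HAP5, -0.65 for ROX1, -0.35 for MEF2, -0.42 for ATP17 and -0.45 for UIP4. Where no reason is given, the cause of a lost or gained call was not tested.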
